A study of Mus musculus with 2 samples.

Results

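The cytosolic ribosomal protein genes encode the proteins that join ribosomal RNA in the ribosome of the cytoplasm. They were taken by name as the gene rows that start with Rpl or Rps followed by a number, with an a, x or l allowed at the end, together with Rplp0, Rplp1, Rplp2 and Rpsa. Pseudogenes and the S6 kinases were left out. The rule gave 80 of the 32285 genes of the matrix, 49 of the large subunit and 31 of the small subunit, on 19 chromosomes. Of these, 4 are paralogues named after another member (Rpl3l, Rpl10l, Rpl39l and Rps27l), and the other 76 are called core members.

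The data came from brain tissue of a C57BL/6 mouse embryo at E18.5 (embryonic day) that was homozygous for a CRISPR/Cas9-made Ctcf mutation (CTCF-R567W). SPARC-seq gave 1 RNA library and 1 chromatin accessibility library that share barcodes. No wild-type library was part of the series, so nothing here is a comparison of genotypes. The barcodes form a grid, and 1 spot of it can contain more than 1 cell, so that spots are neither cells nor replicates. Of 1993 barcodes in the matrix, 1992 were kept, with 907 to 12442 UMIs each (median 4157) and 8711132 UMIs in all. With 1 library there is no test between conditions. Intervals are given at 95% and describe counting error alone.

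Ribosomal proteins are made in nearly equal numbers, because each ribosome holds 1 copy of almost every one of them. Their mRNAs are among the most abundant of a cell and start with a run of pyrimidines at the 5′ end, the terminal oligopyrimidine (TOP) motif, through which growth signals set their translation. Growing and dividing cells need many ribosomes, and muscle, secretory epithelium and neurons each make protein at a high rate for their own purposes.

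The core members lay close to the top of the expression range. Together the 80 genes took 203321 UMIs, or 2.33% of all UMIs (interval 2.32 to 2.34). Each core member had between 578 and 7337 UMIs, with a median of 2502.5, which lay at percentile 97.3 of the 19064 protein-coding genes with a UMI (median 126). Per kb of exons the median core level was 288 CPM (UMIs of the gene in 1000000 UMIs), at percentile 98.9 of the same genes. UMIs counted once per library do not tell fewer cells of a type from less RNA per cell, and this holds for every level below.

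The 5 members with most UMIs took 15.7% of all member UMIs. Rps15 (chr10:80292453-80294114, GRCm38, plus strand), a protein of the small subunit's head, had 7337 UMIs, and a UMI of it was seen in 93.5% of spots. Rpsa (chr9:120127689-120132369, plus strand), the small subunit protein also known as the laminin receptor, had 6442. Rpl41, which encodes the shortest protein of the ribosome, had 6198. Rpl13 and Rpl28, both of the large subunit, had 6161 and 5725. These genes are of unequal length, so the order of their levels was read per kb of exons. On that scale Rps15 remained first at 1685 CPM per kb, Rpl41 had 1223, Rpl13 907, Rpl28 594, and Rpsa 382.

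The P-stalk, the flexible arm of the large subunit that recruits translation factors, is built on Rplp0 with dimers of Rplp1 and Rplp2. Rplp1 had 4491 UMIs, Rplp0 3247 and Rplp2 2526. Per kb of exons Rplp1 had 1033 CPM, against 301 for Rplp2 and 274 for Rplp0. The level of Rplp1 per kb was thus apart from the other two stalk genes, whose exons sum to 964 and 1358 bp against 499 bp for Rplp1.

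The core members with fewest UMIs were Rps27 (578), Rpl22 (802), Rpl39 (818), Rpl10 (865) and Rpl36a (878). Rps27 is a zinc finger protein of the small subunit, Rpl39 lines the exit tunnel, and Rpl10 joins the large subunit late in its assembly. Rps27 has only 345 bp of exons, and per kb its level was 192 CPM, inside the range of the other members. Rpl22, with 2051 bp, had 44.9 CPM per kb, and the lowest core level per kb was that of Rps15a at 25.6. Rps15a had 1157 UMIs, and its low level per kb came with 5179 bp of annotated exons. That is the most of any core member, where the median was 882 bp. The interval of a single member was narrow beside these differences: that of Rps27 was 61.1 to 72.0 CPM before scaling by length.

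The paralogues were lower. Rpl10l (chr12:66283379-66284401, minus strand), best known from the testis, had 0 of 8711132 UMIs, which allows up to 3 UMIs. Rpl39l, also best known from the testis, had 15 UMIs, and Rpl3l, known from heart and skeletal muscle, had 20. These are 2.14 and 1.67 CPM per kb of exons. Rps27l stood apart from the other paralogues with 509 UMIs, close to the 578 of Rps27, and 117 CPM per kb against 192. The mRNAs of Rps27 and Rps27l are alike, and how reads shared by such pairs were counted was not tested.

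**Figure D1:**
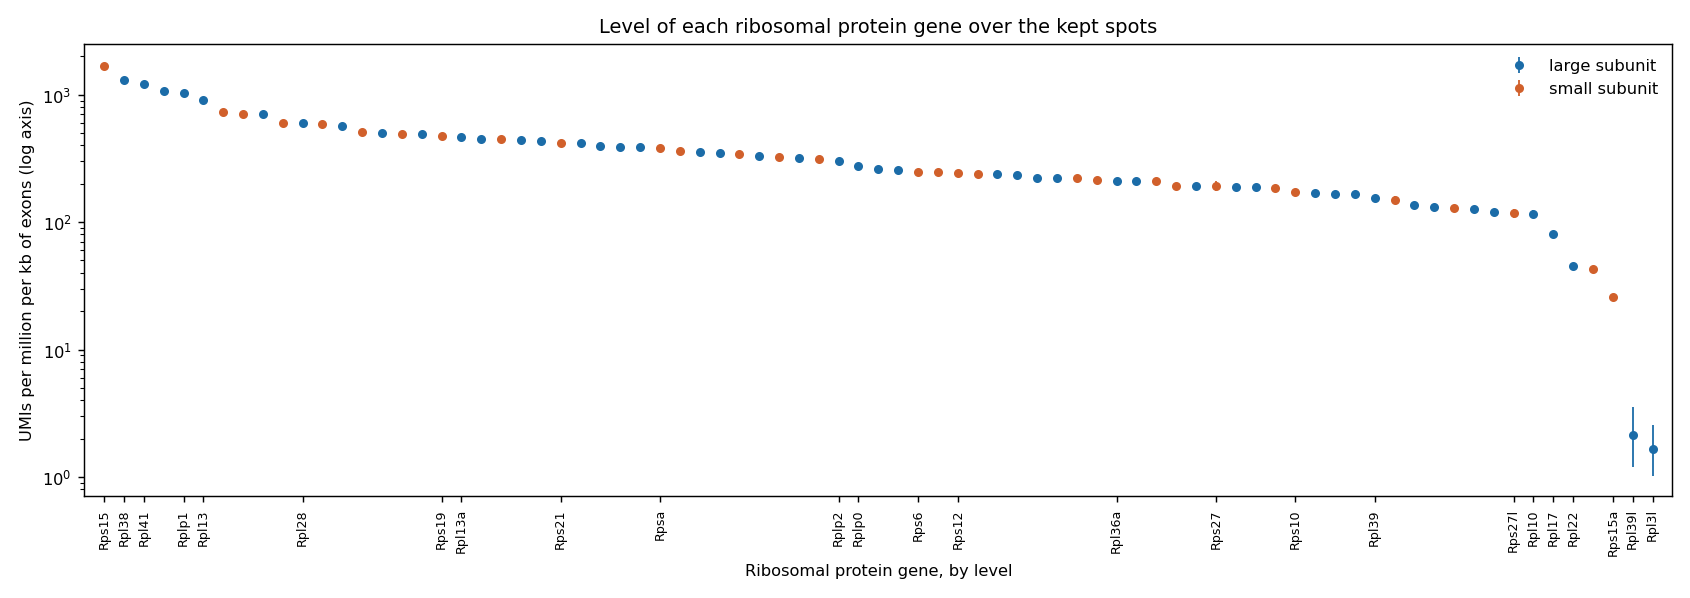
The level of the 79 ribosomal protein genes with a UMI, in CPM per kb of exons on a log axis, with 95% counting intervals, subunits in colour and labels for some of the genes named in the text. Rps15 stands highest at 1685, the core genes end with Rps15a (5179 bp of annotated exons) at 25.6, and Rpl39l and Rpl3l lie near 2.

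The 10th and 90th percentiles of the level per kb of exons over the 79 members with a UMI were 5.88-fold apart, while over all protein-coding genes with a UMI they were 218-fold apart. Without the paralogues the spread was 5.45-fold, and without scaling by length it was 4.94-fold over the 79. The subunits did not stand apart: the median was 288 CPM per kb for the 46 core genes of the large subunit and 280 for the 30 of the small subunit. UMIs followed neither exon length (Spearman 0.10) nor gene span (0.05) over the core members. Ribosomal protein genes have many processed pseudogenes, and reads that match a copy as well as the gene can be lost. GENCODE M21 lists 297 pseudogenes named after members, up to 24 for one gene, and 5 of these had rows in the matrix with 151 UMIs in all. Over the 76 core members the Spearman correlation of UMIs with the number of named pseudogenes was -0.20. The 43 members with 2 or more had a median of 2044 UMIs and the other 33 a median of 2839. What these pseudogenes did to the counts was not tested.

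The RefSeq promoter table (GRCm38.p6, 250 bases before to 50 after the start) held 60 of the 80 members, 56 of them core. The word CCGGAAG, a core site of ETS factors, stood on either strand in 21 of 56 (37.5%), against 9.19% of the 27025 promoters of the table and 14.7% of those of 2628 other coding genes with at least as many UMIs as the lowest core member. The word CTTTC or CTTTT stood on the sense strand within 20 bases of the start in 20 of 56 (35.7%), against 9.18% and 6.16%. Such words resemble the TOP motif, but that motif lies at the 5′ end of the mRNA, and these 40 bases begin before it. A C stood at the RefSeq start in 32.1% of core members, 16.2% of all promoters and 15.3% of the 2628 genes. A run of 8 or more pyrimidines within the same 40 bases was found in 46.4% of core members, 15.9% of all promoters and 17.1% of the 2628 genes. GGGCGG, the core of SP factor sites, was in 58.9%, 36.1% and 68.2%. A YY1 word (AAGATGGC) was in 7.14%, 2.84% and 4.95%. TATAAA was in 8.93%, 14.2% and 6.89% (with 100 bases before the start in 8.93%, 7.28% and 3.20%, so that its place beside all promoters turns with the window), CCAAT in 32.1%, 37.8% and 34.7%, and the NRF1 palindrome in 3.57%, 0.977% and 2.36%. The RefSeq start lay within 50 bases of the annotated start used for the accessibility counts in 37 of the 56. A match is a description of letters in a window and not a measured binding site.

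The sequences below run from 60 bases before to 20 bases after the RefSeq start, 5′ to 3′ along the gene. Capitals mark the factor words named above on either strand, and the pyrimidine words within 20 bases of the start on the sense strand. They show the 3 genes with most UMIs, both stalk genes of the table, the gene with the highest muscle ratio among members with at least 200 UMIs, the lowest core gene, the promoter with most fragments and 3 of the 4 paralogues.
Rps15 (chr10:80292371-80292450, plus strand): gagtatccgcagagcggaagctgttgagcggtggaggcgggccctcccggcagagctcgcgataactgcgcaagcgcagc
Rpsa (chr9:120127706-120127785, plus strand): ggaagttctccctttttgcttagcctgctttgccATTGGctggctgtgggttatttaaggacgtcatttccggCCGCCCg
Rpl41 (chr10:128549149-128549228, minus strand): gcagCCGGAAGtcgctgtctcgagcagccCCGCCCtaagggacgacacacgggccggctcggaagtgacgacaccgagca
Rplp0 (chr5:115559407-115559486, plus strand): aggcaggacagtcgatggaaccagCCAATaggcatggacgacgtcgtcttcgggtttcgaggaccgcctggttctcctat
Rplp2 (chr7:141447591-141447670, plus strand): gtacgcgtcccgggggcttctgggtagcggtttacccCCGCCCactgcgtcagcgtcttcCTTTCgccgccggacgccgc
Rps12 (chr10:23787190-23787269, minus strand): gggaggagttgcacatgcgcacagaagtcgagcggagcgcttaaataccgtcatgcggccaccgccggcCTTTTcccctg
Rps27 (chr3:90213629-90213708, minus strand): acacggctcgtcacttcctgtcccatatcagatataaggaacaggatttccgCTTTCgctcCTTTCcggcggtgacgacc
Rps21 (chr2:180257319-180257398, plus strand): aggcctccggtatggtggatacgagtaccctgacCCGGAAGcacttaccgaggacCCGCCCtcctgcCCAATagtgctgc
Rps27l (chr9:66946026-66946105, plus strand): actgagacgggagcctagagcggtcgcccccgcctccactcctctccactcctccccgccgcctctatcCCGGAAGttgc
Rpl39l (chr16:10170168-10170247, plus strand): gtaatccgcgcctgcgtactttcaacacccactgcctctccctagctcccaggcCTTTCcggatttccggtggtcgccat
Rpl3l (chr17:24727766-24727845, plus strand): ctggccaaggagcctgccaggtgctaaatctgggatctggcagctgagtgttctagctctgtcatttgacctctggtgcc

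In this window Rplp2, Rps12, Rps27 and Rpl39l held a pyrimidine word near the start, Rps27 with one CTTTC before it and another after it. Rps15, the gene with most UMIs, held none of the words. Rpsa and Rplp0 each held a CCAAT box, which in Rpsa stands on the other strand, beside an SP word after the start. Rps21, the promoter with most fragments, held an ETS word, an SP word and a CCAAT box. Rps27l held an ETS word and Rps27 did not, and Rpl3l held none of the words. Over the 56 core members, those with the ETS word had a median of 360 promoter fragments (accessibility fragments within 1 kb of the start, described below) and 2291 UMIs, and those without it 290 and 2304. The SP word went with a difference in the same direction, at 360 fragments and 2287 UMIs with it and 284 and 2529 without. For every other word named above, the median of promoter fragments was lower with the word than without it. Those with a pyrimidine word had a median of 2195 UMIs, and the other 36 had 2344.5.

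Every kept spot held member UMIs, from 21 to 320 (median 95). The member share ran from 1.43% to 4.30% of a spot's UMIs, with a median of 2.29% and 1.83% and 3.02% at the 5th and 95th percentiles. The variance over spots was 2.39 times that of counting error, which leaves a spot-to-spot coefficient of variation of 11.7%. The genes were put alternately into sets by rank. Over 1992 spots the share of one set had a Spearman correlation of 0.36 with that of the other. It was 0.19 with second barcode segments (described next) taken out. A median spot held only 95 member UMIs over both sets, and counting error lowers such correlations. Their size thus does not say how closely the members moved together. These sets share the library and the spots' total UMIs.

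The share differed along both axes of the grid, more along the second. Each barcode is made of a first and a second segment, and spots with the same segment form a strip. Across the 50 first segments the member share was 2.16% to 2.62%. Across the 46 second segments with at least 10 spots it was 2.12% to 3.10%, with a median of 2.25%. In 8 of these 46 segments the share was 2.65% or more, and in the other 38 it was at most 2.43%. Of the 8, 6 held at least 23 muscle-rich spots each, as defined below, while no other segment held more than 3. The remaining members of the 8 had 12 and 17 spots, the smaller one with the highest share of all (3.10%, interval 2.90 to 3.30). That segment held 1 muscle-rich spot, and its fibroblast and bone markers (Col1a1, Col1a2, Col3a1, Dcn, Lum and Postn) summed to 11040 CPM. Within second segments the variance over spots fell to 1.54 times counting error and the coefficient of variation to 7.12%.

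Spots were ranked by the share of their UMIs from muscle, epithelial and neuronal marker lists, none of which holds a ribosomal protein gene. The 200 spots with the highest muscle share were called muscle-rich, the top 50 for the epithelial list epithelium-rich, and the top 200 for the neuronal list neuron-rich. The labels name brain tissue, and muscle and epithelial markers were not absent: each of the 12 muscle and 14 epithelial genes had UMIs. The muscle list (with Myh8, a developmental myosin heavy chain, and Mylpf, a fast-muscle light chain, as its most abundant genes) summed to 16923 CPM in muscle-rich spots and 4820 elsewhere. The epithelial list (led by Wfdc2 and the keratin gene Krt18) summed to 2577 and 210 in epithelium-rich and other spots. The neuronal list (led by Elavl3 and Celf4, genes of neuronal RNA-binding proteins) had 8838 in neuron-rich spots and 5811 elsewhere, a smaller contrast. Muscle-rich and epithelium-rich spots shared 19 spots.

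In muscle-rich spots the ribosomal protein genes took 2.74% of UMIs (interval 2.71 to 2.77), against 2.28% (2.27 to 2.29) in the other 1792 spots. The ratio was 1.20 (interval 1.18 to 1.22), and 95% of muscle-rich spots lay above the median of all spots. The gain was spread over the genes: 70 of the 77 members with at least 50 UMIs had a ratio above 1 (45.9% of all genes did), and their median was 1.20, where the median of all 12944 such genes was 0.97. Among the twelfth of genes with most UMIs, where most members lie, the median was 0.88 and the 5th to 95th percentiles 0.66 to 1.34. Only Rps12 was 1.5-fold or more higher and no member was 1.5-fold lower, while 11.3% of all genes with at least 50 UMIs were 1.5-fold higher and 9.6% lower. Among the 7931 genes with at least 200 UMIs, which hold the same 77 members, the shares were 5.42% and 6.2%. Both subunits shared the difference, with 1.21 for the large and 1.18 for the small one.

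The same genes within a strip differed little. When muscle-rich and other spots were compared inside each of the 11 second segments that held both kinds and then pooled, the ratio was 1.02 (interval 1.002 to 1.046). Of 200 muscle-rich spots, 192 lay in 6 second segments. In those 6 segments the 192 muscle-rich spots had 2.74% and the 87 other spots 2.76% (2.72 to 2.81), although the muscle list was at 17029 CPM in the former and 8024 in the latter. These 87 spots had more of the epithelial list than the 192 (1382 CPM against 608), and their muscle list was above the 4587 CPM of the other spots elsewhere. The 1705 other spots of the remaining segments had 2.25% (2.24 to 2.26). The member share thus differed between segments and hardly at all between muscle-rich and other spots of the same segment. Inside the 6 segments taken one at a time the ratio was 0.97 to 1.10, and in 1 of them its interval lay above 1.

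Other measures moved with the muscle-rich contrast. Gm42418, a non-coding row that overlaps a ribosomal RNA repeat, took 6.68% of UMIs in muscle-rich and 4.93% in other spots. Genes longer than 100 kb took 30.9% and 33.9%. The fibroblast and bone list summed to 3055 and 1272 CPM, and the erythroid list (haemoglobin genes and Alas2) to 7837 and 6600. The epithelial list was 2.44-fold higher in muscle-rich spots, and the ratios of the neuronal (0.699), choroid plexus (0.658) and cycling (0.788) lists were below 1. Compared within equal groups of spots ranked by Gm42418 share, of which 3 of 5 held muscle-rich spots, the ratio was 1.07, and with the long genes taken out of the total it was 1.15. Their part in the difference was not tested.

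**Figure D2:**
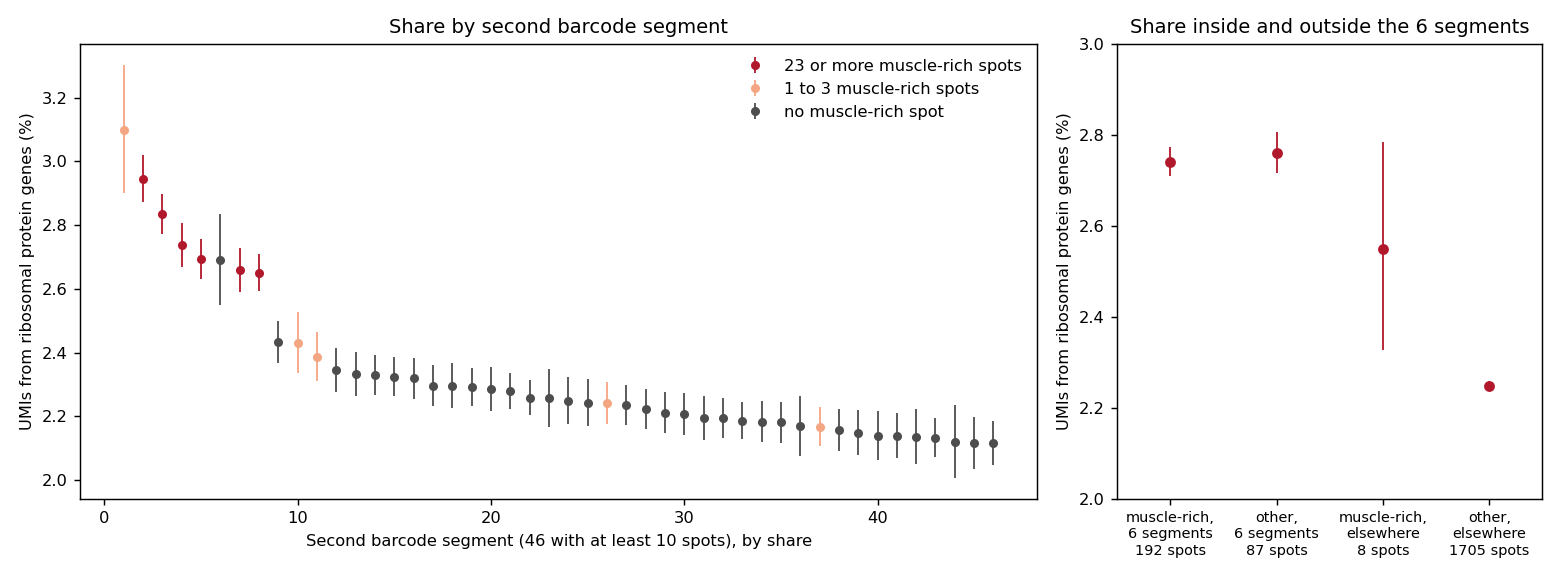
Left, the share of UMIs from ribosomal protein genes (%) in each of the 46 second barcode segments with at least 10 spots, ordered by that share, with 95% counting intervals; colours give the number of muscle-rich spots. Right, the share in muscle-rich and other spots inside and outside the 6 segments that hold most muscle-rich spots, where the 87 other spots inside lie at 2.76%, level with the 192 muscle-rich ones at 2.74%.

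Among members with at least 200 UMIs, Rps12 had the highest ratio in muscle-rich spots. Rps12, of the small subunit's head, had 218 CPM there and 133 elsewhere, a ratio of 1.64 (interval 1.41 to 1.90). Rpl39 had 127 and 89.6 (ratio 1.42, 1.16 to 1.71), and Rps20 had 215 and 153 (ratio 1.41, 1.21 to 1.63). The interval of Rps12 overlapped those of Rpl39 and Rps20 and did not hold the 1.20 of the summed genes. Rps12 is also one of the genes with 24 named pseudogenes, and the part of these in its ratio was not tested. The lowest were Rpl27 (ratio 0.85, 0.69 to 1.04), Rpl7a (0.87, 0.70 to 1.06) and Rpl29 (0.87, 0.73 to 1.04), all of the large subunit, with intervals that held 1. The intervals of 51 members lay above 1 and none lay below it. Members have many UMIs and so narrow intervals, and the share of all genes with such intervals was not computed. The intervals of 58 of 77 members held the ratio of the summed genes. That is fewer than counting error alone would leave if all members shared it. Among the rest, Rpl38, with 5181 UMIs, lay below that ratio (0.93, 0.85 to 1.01) and Rps12 above it. Rpl3l, the muscle paralogue, had 6.00 CPM in muscle-rich and 1.82 in other spots, a ratio of 3.30 with a wide interval (1.04 to 9.15) since it rested on 20 UMIs, and its size cannot be read more closely than that.

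In the 50 epithelium-rich spots the member share was 2.76% (interval 2.70 to 2.82), against 2.32% (2.31 to 2.33) in the others, a ratio of 1.19 (1.16 to 1.22). All 50 lay in 6 second segments, and pooled within them the ratio was 0.96 (0.93 to 0.99), on the other side of 1. In these segments the 208 other spots had more of the muscle list (12548 CPM against 9425) and of the fibroblast and bone list (3018 against 2419), and less of the epithelial list (466 against 2577). The 208 other spots of these segments had 2.67% and the 1734 spots elsewhere 2.28%. Gm42418 was again higher in epithelium-rich than in other spots (7.16% and 5.07%), as were the muscle list (9425 and 6102 CPM) and the fibroblast and bone list (2419 and 1445), while the erythroid list was lower (5287 and 6791). The ratios of the neuronal (0.676), choroid plexus (0.629) and cycling (0.658) lists were below 1, and genes longer than 100 kb took 31.0% and 33.7%. Their part was not tested. The 31 epithelium-rich spots that were not muscle-rich had 2.74% and the 181 muscle-rich spots that were not epithelium-rich 2.73%, within each other's intervals.

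Of 77 members, 65 had a ratio above 1 in epithelium-rich spots (47.4% of all genes did), and 4 were 1.5-fold or more higher with none 1.5-fold lower. Of all genes with at least 50 UMIs 17% were higher and 20.3% lower by this fold, and of those with at least 200 UMIs 9.29% and 16.3%. Rps6, the small subunit protein phosphorylated by S6 kinases, had 352 CPM in epithelium-rich spots and 213 elsewhere (ratio 1.65, 1.33 to 2.02). Rps26 had 162 and 99.2 (ratio 1.63, 1.18 to 2.19), and Rpl27a 345 and 216 (ratio 1.60, 1.29 to 1.96). The fourth was Rps27 at 1.51 (0.99 to 2.20), whose interval held 1. The lowest ratios were those of Rps7 (0.77, 0.50 to 1.12), Rpl35 (0.87, 0.66 to 1.13) and Rpl9 (0.89, 0.62 to 1.23). The intervals of 67 of 77 members held the ratio of the summed genes.

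In neuron-rich spots the share was lower, at 2.19% (interval 2.16 to 2.23) against 2.35% (2.34 to 2.36), a ratio of 0.93 (0.92 to 0.95). Over 5 equal groups of spots ranked by neuronal share it went from 2.60% in the lowest to 2.38%, 2.28%, 2.23% and 2.18% in the highest. Of 77 members 16 had a ratio above 1, against 48.0% of all genes. No member passed 1.5-fold in either direction, while 3.6% of genes with at least 50 UMIs were higher and 10.6% lower, and 0.719% and 3.91% of those with at least 200 UMIs. Pooled within the 38 second segments that held both kinds of spots, the ratio was 0.987 (0.971 to 1.003). In the neuron-rich spots the muscle list was at 4476 CPM against 6381 in the others, the fibroblast and bone list at 927 against 1531, the epithelial list at 159 against 299.7, the pituitary list at 106 against 199.6 and the erythroid list at 5529 against 6861. Rpl17 had the lowest ratio (0.74, 0.56 to 0.96), then Rps27 (0.80, 0.57 to 1.09) and Rps24 (0.80, 0.70 to 0.92). Rpl38 (1.10, 1.003 to 1.21), Rps7 (1.10, 0.89 to 1.34) and Rps28 (1.09, 0.90 to 1.32) were the highest.

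The stalk genes and Rpsa were compared one by one. In muscle-rich spots Rplp1 had 649 CPM and 498 elsewhere (ratio 1.30, 1.20 to 1.42), Rplp0 418 and 367 (1.14, 1.03 to 1.26), and Rplp2 339 and 284 (1.19, 1.06 to 1.34). Rpsa had 896 and 719 (1.245, 1.16 to 1.34). In neuron-rich spots the ratio was 0.96 for Rplp1, 0.87 for Rplp0, 0.97 for Rplp2 and 0.95 for Rpsa. Their intervals overlapped one another in both contrasts. In epithelium-rich spots Rplp0 was at 1.34 (1.13 to 1.59) and Rplp1 at 0.94 (0.79 to 1.11), with intervals that did not overlap. Rplp2 (1.03, 0.82 to 1.28) and Rpsa (1.22, 1.07 to 1.38) lay between them, with intervals that overlapped both. The interval of Rplp1 did not hold the 1.19 of the summed genes. Rps27l had a ratio of 1.21 in muscle-rich spots (0.92 to 1.56), with an interval that held 1.

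**Figure D3:**
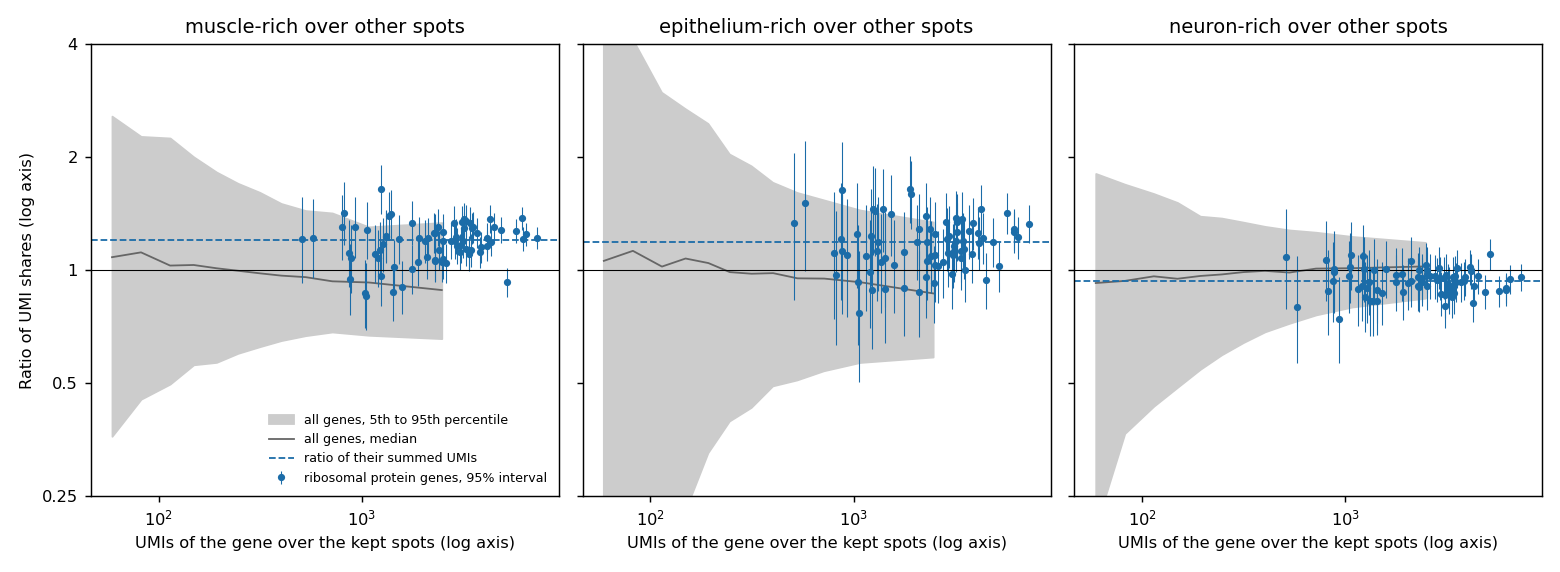
Ratio of the UMI share in muscle-rich, epithelium-rich and neuron-rich spots to that in the other spots, for each member with at least 50 UMIs with its 95% counting interval, against the UMIs of the gene (both axes log). The grey band spans the 5th to 95th percentiles of all genes of like level; the dashed line is the ratio of the summed genes, 1.20, 1.19 and 0.93.

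Genes of the same pathway did not all share these ratios. The 78 mitochondrial ribosomal protein genes, which serve the ribosome inside mitochondria, had a summed ratio of 0.98 (interval 0.94 to 1.01) in muscle-rich, 0.93 (0.87 to 0.98) in epithelium-rich and 1.02 (0.98 to 1.06) in neuron-rich spots. Of them 6 were 1.5-fold higher and 5 lower in muscle-rich spots, where 11.3% and 9.6% of all genes were, and 5 higher and 21 lower in epithelium-rich spots, where 17% and 20.3% were. The most abundant were Mrps21 (ratio 0.94 in muscle-rich spots) and Mrpl52 (0.84). The 20 translation factors and other TOP mRNAs had 1.10 (1.07 to 1.14), 1.13 (1.07 to 1.19) and 0.95 (0.92 to 0.98), with none past 1.5-fold in muscle-rich spots. Their most abundant genes were near 1: Eef2, the translocation factor, was at 1.01 and Eef1a1, which brings transfer RNA to the ribosome, at 0.997 in muscle-rich spots. The 20 ribosome assembly genes had 1.02 (0.95 to 1.09), 1.03 (0.91 to 1.16) and 0.98 (0.91 to 1.06), and of these Ncl, which encodes nucleolin, was at 1.16 (1.01 to 1.33) and Ubtf, which encodes a factor of RNA polymerase I, at 1.13 (0.92 to 1.37) in muscle-rich spots.

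Over spots the member share had a Spearman correlation of 0.34 with the muscle list, 0.18 with the epithelial list and -0.33 with the neuronal list. With second segments taken out of both measures these were 0.02, -0.04 and -0.10. The fibroblast and bone list (0.35), Gm42418 (0.34) and the erythroid list (0.24) were at 0.10, 0.03 and 0.13 within segments. The strongest relation of those computed was with the share of genes longer than 100 kb, at -0.53 over spots and -0.34 within segments. Over the 46 segments the correlations were 0.61 for the muscle, 0.68 for the epithelial and -0.70 for the neuronal list. They were 0.56 for the fibroblast and bone list, 0.47 for Gm42418, 0.45 for the erythroid list and -0.62 for the long genes. All these measures are shares of the same UMI total, so they are not independent.

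The accessibility library gave 46993860 fragments in the kept spots. Fragments that overlapped the 1 kb on each side of a gene's annotated start were counted as promoter fragments. The 76 core members had a median of 344 promoter fragments (range 48 to 934), against 159 for all 21702 protein-coding genes, which put the core median at percentile 77.7. Beside the 3322 other coding genes with at least as many UMIs as the lowest core member the difference was small, with a median of 309 and the core median at percentile 56.9. This is a floor and not a match of levels, since their median was 1021 UMIs against 2502.5 in core members. A peak of the matrix covered the annotated start of 72 of 76 core members (94.7%), against 83.5% of those 3322 genes and 55.9% of all coding genes. The promoter counts of the members were closer together than those of the other genes: the 10th and 90th percentiles were 3.20-fold apart in core members and 4.96-fold in the 3322 genes.

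Most promoter fragments were found at Rps21 (934, interval 875 to 996), Rps19 (892, 834 to 953) and Rpl13a (823, 768 to 881). Rps19 is the gene most often mutated in Diamond-Blackfan anaemia. Fewest were found at Rpl10l (45), Rpl17 (48) and Rpl39l (60). Rpl10l had 0 UMIs, but Rpl17 had 927. The annotated start of Rpl17 lay 1593 bp from the nearest peak, and that of Rps10, with 81 fragments and 1325 UMIs, 858 bp from one. The RefSeq start of Rps10 lay 1425 bases from the annotated start, outside the window counted. The start of Rpl35 lay 13 bp from a peak and that of Rps14 16641 bp from one, which completes the 4 core members with no peak at the start. The annotated start was the most upstream one among a gene's principal transcripts, or among all its transcripts where none was principal. Fragments at another start can fall outside the window. The part of this in the low counts, the missing peaks and the correlation that follows was not tested. The RNA level and the promoter count were unrelated over core members (Spearman -0.01), and nearly so over the 3322 other coding genes (-0.06). Rps15, the first by RNA, had 233 fragments, Rpsa 324 and Rpl41 360, while Rps27, the core member with fewest UMIs, had 275.

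**Figure D4:**
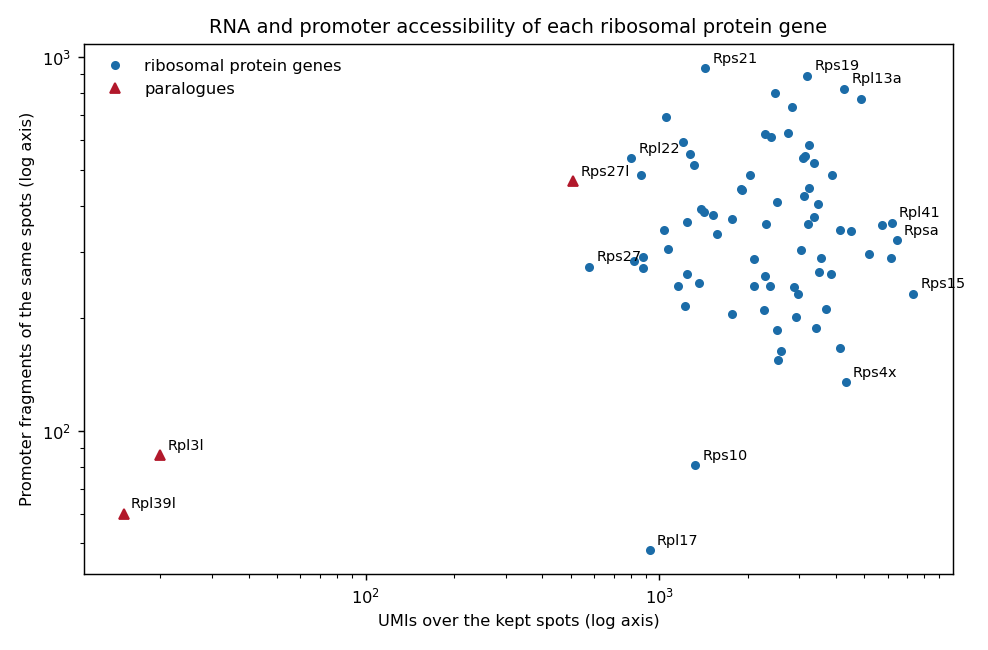
Promoter fragments of each member with a UMI against its UMIs, both over the kept spots and on log axes, with the 3 paralogues as triangles. The core genes form a cloud with no trend, with Rps21 highest at 934 fragments and Rpl17 and Rps10 lowest of the core genes at 48 and 81.

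Insertions of the Tn5 transposase were concentrated at the start of these genes. In core members the mean was 1.89 insertions per bp per gene in the highest 10-bp bin, 20 to 30 bp before the start, against 1.22 in the 3322 genes and 0.75 in all coding genes in the same bin. From 800 to 1000 bp before the start, core members had 0.067 per bp and the 3322 genes 0.115. The level from 150 bp before to 50 bp after the start was 22.1 times that of both outer stretches in core members, and 8.30 times in the 3322 genes. The ratio of the 150 bp before to the 150 bp after the start was alike, at 1.53 and 1.502. Fragments under 150 bp made up 52.4% of promoter fragments in core members and 51.8% in the 3322 genes. Of the core members 18.4% had another gene starting on the other strand within 1 kb, as did 18.3% of the 3322 genes.

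**Figure D5:**
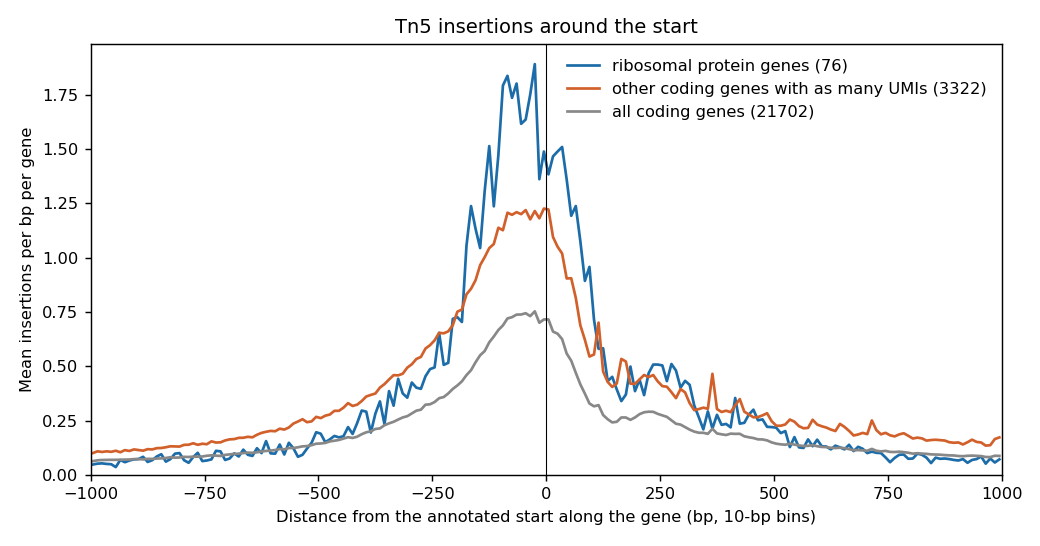
Mean Tn5 insertions per bp per gene by distance from the annotated start in 10-bp bins, for the 76 core ribosomal protein genes, the 3322 other coding genes with at least as many UMIs as the lowest of them, and all 21702 coding genes. The ribosomal protein genes peak at 1.89 just before the start and lie below the 3322 genes in the outer stretches, 800 to 1000 bp from the start on both sides.

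Over all kept spots the promoters did not follow the RNA ratios. In 1000000 promoter fragments of each group, the members had 4715 in muscle-rich and 4851 in other spots, a ratio of 0.972 (interval 0.943 to 1.002). In epithelium-rich spots the ratio was 0.97 (0.91 to 1.04) and in neuron-rich spots 1.03 (0.99 to 1.08). The medians over the 13302 coding genes with at least 100 fragments in the spots compared were 1.001, 0.973 and 0.983. Counted as fragments in windows of 1 kb, the intervals held 1 in all 3 contrasts. With 500 bp on each side that of muscle-rich spots lay below 1 (0.95, 0.92 to 0.98). Counted as insertions in 1 kb, muscle-rich spots were at 0.968 (0.948 to 0.989) and neuron-rich spots at 1.035 (1.004 to 1.066), both apart from 1. The intervals of muscle-rich and epithelium-rich spots did not reach the RNA ratios of 1.20 and 1.19 over all kept spots. Within second segments these RNA ratios were 1.02 and 0.96, and promoter ratios were not computed within segments.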

How the data were processed

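RNA and chromatin accessibility were measured by SPARC-seq in 1 library each of E18.5 Ctcf homozygous mutant brain tissue. The fragment header gives cellranger-arc 2.0.1, and the submitters' processing notes give Seurat 4.0. The reference was mm10 (GRCm38). The deposited files hold UMI counts per gene (32285 genes), counts per peak (91223 peaks) and the fragments of each barcode, none of them normalized. Chromosome names in the fragment header, and the position of the last feature on each chromosome, were checked against GRCm38 (21 chromosomes).

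A spot was kept if it had 500 to 6000 genes and no more than 20% of UMIs from mitochondrial genes. Member UMIs were summed over spots and divided by all UMIs of the same spots. Levels between genes are given as UMIs and, for the order of members, per kb of exons (GENCODE M21). Medians by word or by number of pseudogenes used UMIs not scaled by length. So did the correlation with promoter fragments and the floor for the other coding genes. Spots were ranked by the UMI share of marker lists, and the top 10% (muscle, neuronal) or 2.5% (epithelial) were compared with the rest. Poisson intervals of counts and conditional binomial intervals of ratios are exact at 95%. Ratios within barcode segments or 5 equal groups of spots were pooled by the Mantel-Haenszel method with the interval of Greenland and Robins. That the 8-base barcode segments are the axes of the grid was inferred from the barcodes. Genes were compared at 50 UMIs or more. Spot filter, totals, thresholds, list cuts and promoter windows were varied. Ratio and pooling steps were tested on simulated data. PCR duplicates that UMIs miss are not covered by the intervals.

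The members and lists were chosen with earlier results of these data known. Named were the paralogues, Rplp0, Rplp1, Rplp2 and Rpsa, the 5 core members with most and with fewest UMIs, the 3 highest and lowest ratios per contrast among members with 200 UMIs or more, the 3 with most and with fewest promoter fragments, and the 2 most abundant genes of each other list. Rps15a, Rps10, Rps14, Rpl35 in accessibility, and Rps27 in epithelium-rich spots were named after their values were seen. Python 3.11.15, numpy 2.4.6, scipy 1.17.1, pandas 2.3.3 and matplotlib 3.10.9 were used.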

Additional observations from a re-analysis of the deposited data

Results flagged for a closer look

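The accessibility library held 507 barcodes outside the matrix, with 5833396 fragments, which the comparisons above did not use. Of these fragments 2233 (interval 2141 to 2328) overlapped the promoters of ribosomal protein genes, and each of the 80 genes had at least 1, where a count of 0 would allow up to 3. In 1000000 promoter fragments this was 4381, against 4827 in the kept spots, a ratio of 0.908 (0.869 to 0.948). As a share of all fragments it was 0.0383% outside the matrix and 0.0633% in the kept spots.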

How the results depend on the processing

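Of 88 alternative values, 57 moved by less than the counting error or stayed within 1.5 times the count, 30 moved and 1 reversed. The promoter percentile and the spread of levels have no interval, and their alternatives were all counted as moved without this rule. Within second barcode segments the ratio was 1.02 in muscle-rich, 0.960 in epithelium-rich (reversed) and 0.987 in neuron-rich spots. In alternatives chosen after seeing the data, the ratios within 5 equal groups of spots by Gm42418 share were 1.07, 1.04 (3 groups held such spots in each) and 0.968, within 5 such groups by the fibroblast and bone list 1.10, 1.12 and 0.966, and without genes longer than 100 kb 1.15 in both muscle-rich and epithelium-rich spots. Without Gm42418 the share over all spots was 2.46% and the muscle ratio 1.22, and without mitochondrial genes the share was 2.35%. With the top 10% of spots the epithelial ratio was 1.15. At a ratio of 5 to 4 in place of 1.5-fold, 26 members were higher in muscle-rich spots (21.5% of all genes and 13.4% of those with at least 200 UMIs), 25 higher and 1 lower in epithelium-rich (27.7% and 32.2%, and 19.9% and 31.5%) and 2 lower in neuron-rich spots (21.3% and 13.3%), and at 2-fold 0 members were higher in muscle-rich (4.26% of all genes) and 0 in epithelium-rich spots (7.76%). With a minimum of 20 UMIs, 2 members were higher in muscle-rich (14.3% of all genes), 1 lower in epithelium-rich (23.01%) and 1 lower in neuron-rich spots (15.4%). The promoter percentile was 80.5 with 500 bp on each side, 75.7 with 2 kb and 78.3 with insertions. The spread of levels was 7.99-fold per kb of gene span, 4.94-fold not per length and 5.45-fold without paralogues. CCAAT was in 19.6% with 100 bases before the start, where all promoters had 23.9%. Causes were not tested. No paired analysis was possible because each assay has 1 library, and for the same reason nothing here says how another animal would differ. The 3 members under 50 UMIs (Rpl3l, Rpl39l, Rpl10l) had wide intervals or no ratio.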
